A study of Mus musculus with 27 samples.

Results

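The genes described here are 5 STAT transcription factors (Stat2, Stat3, Stat5a, Stat5b and Stat6) and the 4 JAK kinases (Jak1, Jak2, Jak3 and Tyk2). They were taken by symbol from the 55483 genes of the deposited count table, and all 9 passed the filter on low counts in every comparison. The cells were RAW264.7, an established mouse macrophage line, about 30 M per sample, harvested at 6 h. Control cells received DMSO, the solvent. Another group received lipopolysaccharide (LPS) at 1 µg/ml, a bacterial cell wall component that activates macrophages. The labels give this group DMSO as well, and it is called LPS here. The last group received the same LPS together with TM7nox at 10 µM, one of the tanshinone mimics, compounds made to interfere with the RNA binding of the protein HuR. TM7nox without LPS was not among the groups. Each treatment had 4 libraries of total RNA, 4 of RNA recovered with an anti-HuR antibody (RNA immunoprecipitation, RIP) and 1 of RNA recovered with control IgG. The labels number the replicates but do not say that they are separate cultures, so the p-values measure the spread between these samples, which may be technical.

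JAK kinases sit on the inner face of cytokine receptors and phosphorylate each other, the receptor and STAT proteins when a cytokine binds. Phosphorylated STATs pair, enter the nucleus and switch on target genes, among them the SOCS and CISH inhibitors that close the loop. In macrophages, LPS makes the cells secrete type I interferon, interleukin-6 and interleukin-10, which act back on the same cells through these kinases, and the transcription of several STAT and JAK genes is itself raised by interferon. HuR is an mRNA-binding protein that prefers U-rich and AU-rich stretches, mostly in 3′ UTRs, and such stretches are printed here for genes that the RIP values describe below.

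Stat5b, Stat5a and Stat3 lie in a row on chromosome 11 (GRCm39). Stat5b spans chr11:100671556-100741589 on the minus strand and Stat5a spans chr11:100750177-100776065 on the plus strand, with 8.6 kb between them. Stat3, at chr11:100775924-100830450 on the minus strand, overlaps the 3′ end of Stat5a by 142 bases. Whether counting used the strand is not given in the sources used here, so reads of that overlap cannot be assigned to one of these genes with certainty. Stat5a and Stat5b also share 608 identical windows of 50 bases in their main transcripts, 15.55% of those of Stat5a and 12.05% of those of Stat5b, so their counts are uncertain to that degree. No other pair of the 9 shared such a window. Stat2 (chr10:128106352-128128735, plus strand) overlapped no other annotated gene. Stat6 (chr10:127477821-127496862, plus strand) overlaps Nab2 on the other strand, and Jak1 (chr4:101008838-101122487, minus strand) overlaps Raver2 on the other strand. Jak2 (chr19:29228677-29290505, plus strand) and Tyk2 (chr9:21015363-21042689, minus strand) overlap only non-coding RNAs. Jak3 (chr8:72123007-72143225, plus strand) overlaps exons of Insl3 on the same strand and of B3gnt3 on the other.

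The 30 bases of each 3′ UTR with the densest cover of ATTTA or TTTNTTT (searched on the sense strand, N being any base, overlapping matches counted, the 2 motifs not overlapping in any window shown) are given for 5 of the 6 genes that differed between RIP and RNA in all 3 treatments: Stat5a and Stat5b, which were higher in RIP, and Stat2, Jak1 and Jak3, which were lower. The other, Stat6, held no match. Sequences are GRCm39, 5′ to 3′ on the gene's strand, with motif bases in capitals.
Stat5a: ttcatccttcttgcTTTTTTTTTTTTTTTT
Stat5b: gtttTTTGTTTctaaatcaggtcTTTTTTT
Stat2: attttatgaataagagggcatcaTTTCTTT
Jak1: aagcatgaacaacATTTAaattcccATTTA
Jak3: gaggtggtgaaacaggaaaggaaccATTTA
They lie at chr11:100775431-100775460 (Stat5a, plus), chr11:100672929-100672958 (Stat5b, minus), chr10:128128063-128128092 (Stat2, plus), chr4:101010661-101010690 (Jak1, minus) and chr8:72141495-72141524 (Jak3, plus). The Stat5a stretch ends in an unbroken run of 16 T, which alone gives the 10 overlapping TTTNTTT matches of its 3′ UTR, and 14.3% of 1472 UTRs within 20% of its length held as many. Stat5b held 9 TTTNTTT matches (39.3% of like UTRs held as many), Stat3 held 7 (40.3%) and Jak2 held 3 (49.4%). Stat2 and Jak1 held 1 each, and Stat6, Jak3 and Tyk2 held 0, where 74.6%, 93.5% and 74.3% of UTRs of like length held at least 1. ATTTA was most frequent in Jak1, with 4 matches (38.8% held as many), and Stat2 and Stat6 held 0. T made up from 22.8% (Jak3) to 31.7% (Jak2) of the bases of the 9 UTRs, beside a median of 29.2% over 10996 UTRs. A match is only a description of the letters.

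The libraries held 2.73 to 28.3 M counts for RNA, 19.8 to 41.4 M for RIP and 8.87 to 24.5 M for IgG. RNA DMSO replicate 1 was the shallowest at 2.73 M, with 30 counts for Stat5a, 56 for Jak3 and 75 for Jak2. Of 10 macrophage markers, Mertk lay near 0 in RNA (0.00 to 1.13 CPM), while Spi1 stood at 220 to 412 CPM. The 10 markers together held 5340 to 6500 CPM in DMSO libraries, 5200 to 7070 after LPS and 3490 to 6240 with TM7nox. In RNA, 5 epithelial markers summed to at most 0.390 CPM, with Epcam and Krt8 at 0, 7 T and B cell markers to at most 0.300 CPM and 6 fibroblast or endothelial markers to at most 2.26 CPM. The last of these lists stood at 0.689 to 1.11 CPM in RIP with DMSO and at 3.15 to 5.22 CPM in RIP with LPS, and its part in the RIP differences was not tested. CPM, the count scaled to a common library size, is on 1 TMM scale over the 27 libraries. A gene was called changed at an adjusted p under 0.05 (edgeR quasi-likelihood test, Benjamini-Hochberg adjustment over all genes tested).

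LPS raised the RNA of 6 of the 9 genes: Stat2, Stat3, Stat5a, Jak1, Jak2 and Tyk2. None fell. Among all 12369 genes tested, 42.0% were called and 20.2% were called higher, and the median log2 fold change was 1.18 over the 9 genes against -0.04 over all genes. In bulk RNA, more cells with a transcript and more transcript per cell cannot be told apart.

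Among the transcription factors, Stat2 is the partner that joins Irf9 in the interferon-stimulated complex. Its level in replicates 1 to 4 was 28.9, 27.8, 19.6 and 22.6 CPM in DMSO and 205, 171, 174 and 181 CPM in LPS. Every LPS library lay above every DMSO library, and the change was 7.16-fold (log2 2.84, SE 0.15, adjusted p = 5.39e-09). Stat3 carries interleukin-6 and interleukin-10 signals. It stood at 39.2, 28.2, 33.7 and 34.7 CPM in DMSO and at 200, 182, 207 and 199 CPM in LPS. The groups did not overlap, and the change was 5.61-fold (log2 2.49, SE 0.13, adjusted p = 4.41e-09).

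The STAT5 proteins serve the receptors of granulocyte-macrophage colony-stimulating factor and related cytokines. Stat5a stood at 6.42, 7.76, 9.99 and 8.96 CPM in DMSO and at 26.8, 38.6, 41.9 and 44.2 CPM in LPS. Its groups did not overlap, and it rose 4.33-fold (log2 2.11, SE 0.29, adjusted p = 4.57e-05). Stat5b, its close paralog, stood at 19.3, 18, 22.2 and 20.2 CPM in DMSO and at 16.0, 21.6, 25.9 and 22.2 CPM in LPS. Those groups overlapped, with a log2 difference of 0.05 (SE 0.14, adjusted p = 0.825). Stat6 transmits interleukin-4 and interleukin-13 signals. It lay between 85.2 and 92.8 CPM in DMSO and between 96.3 and 110 CPM in LPS, so that the 4 LPS libraries were the higher ones, but the log2 difference of 0.13 (SE 0.09) was not called (adjusted p = 0.272). With Stat6, 7 of the 9 genes had every LPS library above every DMSO library, as had 20.4% of all genes.

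Among the kinases, Jak2 serves the receptors of granulocyte-macrophage colony-stimulating factor and interferon gamma. It stood at 16.1, 18.4, 19.9 and 16.4 CPM in DMSO and at 108, 185, 135 and 122 CPM in LPS. This 7.45-fold rise (log2 2.90, SE 0.21, adjusted p = 1.17e-07) had no overlap between groups. Tyk2, a kinase of the type I interferon and interleukin-10 receptors, stood at 21.6, 16.2, 24.8 and 19.6 CPM in DMSO and at 43.2, 46.9, 54.8 and 48.5 CPM in LPS. It rose 2.27-fold (log2 1.18, SE 0.14, adjusted p = 1.46e-05), again without overlap. Jak1, which most of these receptors use, stood at 120, 102, 112 and 109 CPM in DMSO and at 147, 150, 177 and 178 CPM in LPS. Its rise was the smallest of the 6 at 1.41-fold (log2 0.50, SE 0.11, adjusted p = 0.00219), and in replicates 1 and 2 alone it was not called (log2 0.40, adjusted p = 0.284).

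Jak3 partners the common gamma chain of the interleukin-2 receptor family and was the least abundant of the 9. It stood at 12, 3.38, 4.92 and 4.33 CPM in DMSO and at 7.46, 7.75, 6.77 and 6.25 CPM in LPS. The shallow DMSO replicate 1 lay above all LPS libraries and the other 3 lay below them. The log2 difference was 0.25 (SE 0.33, adjusted p = 0.585), and without that library it was 0.72 (adjusted p = 0.00837). The 6 calls stood without it.

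**Figure D1:**
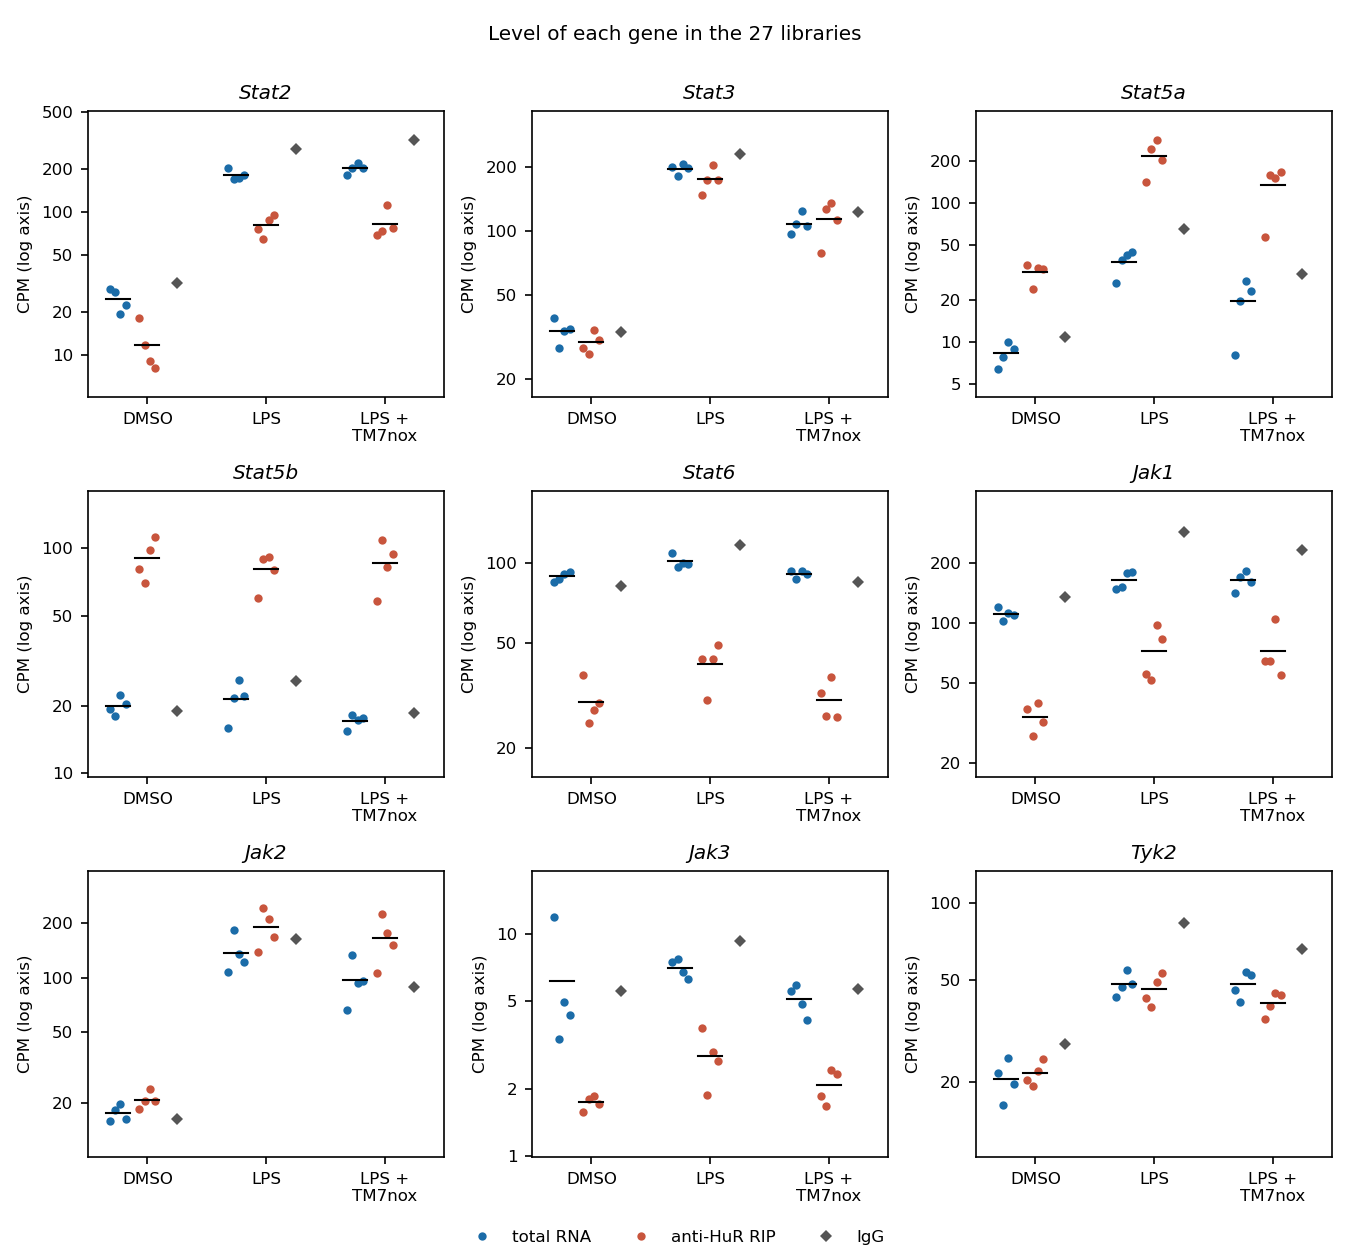
Level of each of the 9 genes in every library, in CPM on a log axis, by treatment. Points are libraries, in replicate order from left to right, and black bars are means of 4. In total RNA (blue), Stat2, Stat3, Stat5a, Jak1, Jak2 and Tyk2 stand higher in LPS than in DMSO with no overlap, and the HuR immunoprecipitate (red) stands far above total RNA for Stat5a and Stat5b and below it for Stat2, Stat6, Jak1 and Jak3, without overlap within a treatment.

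Per kb of exon, the order of the RNA levels changed with LPS. The length used joins all annotated exons of a gene, 10.1 kb for Stat3, 6.31 for Stat2, 6.33 for Jak2 and 6.69 for Stat6. Their main transcripts, with 4518, 4455, 5449 and 3789 overlapping windows of 50 bases, differ in other proportions. The order between genes therefore depends on the length chosen, and the order by main transcript was not taken. In DMSO, Stat6 led at 13.3 ± 0.517 CPM per kb (SD, n = 4) and Jak1 followed at 10.2 ± 0.687, each apart from its neighbour in the order. Stat2 (3.92), Stat3 (3.36), Stat5b (2.88), Jak2 (2.79) and Tyk2 (2.35) then formed a run in which neighbours overlapped, and Stat5a (1.00) and Jak3 (0.790) came last and overlapped. In LPS, Stat2 led at 29.0 ± 2.39 CPM per kb, overlapping Jak2 at 21.7 ± 5.30, which overlapped Stat3 at 19.5 ± 1.05. Stat6 (15.2) and Jak1 (15.1) came next and overlapped each other, followed by Tyk2 (5.53), Stat5a (4.59) and Stat5b (3.09), of which neighbours overlapped, and by Jak3 (0.907), which stood apart. Summed over each family, the 5 STAT genes went from 24.5 ± 0.480 to 71.4 ± 2.89 CPM per kb and the 4 kinases from 16.2 ± 1.38 to 43.2 ± 5.40. With TM7nox added, Stat2 alone led at 32.2 ± 2.5 CPM per kb. By this exon length Stat3 stood at 10.8 ± 1.14, below Jak1 and Stat6 in every library and overlapping Jak2. In CPM not divided by length, Stat3 stood at 96.6 to 124 and Stat6 at 87.1 to 93.6, so their order rests on the length.

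TM7nox, added to LPS, lowered the RNA of 2 of the 9 genes, Stat3 and Stat5a, and raised none. Of all genes, 13.8% were called and 6.4% were called lower, and the median log2 difference was -0.32 over the 9 genes against 0.00 over all. The 2 genes that fell are neighbours on chromosome 11. The sum of macrophage markers reached lower values in this group, and its part in these differences was not tested.

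Stat3 stood at 96.6, 108, 124 and 105 CPM with TM7nox, beside 200, 182, 207 and 199 CPM in LPS. Each library lay below every LPS library and above every DMSO library. Stat3 fell 1.82-fold (log2 -0.86, SE 0.12, adjusted p = 0.000297). In replicates 1 and 2 alone the log2 difference was -0.90 but was not called (adjusted p = 0.109).

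Stat5a stood at 8.03, 19.6, 27.5 and 23.2 CPM with TM7nox, beside 26.8, 38.6, 41.9 and 44.2 CPM in LPS. Each library lay below the LPS library of its number, but replicate 3 with TM7nox lay above LPS replicate 1, so the groups overlapped. The difference was 1.93-fold (log2 -0.95, SE 0.27, adjusted p = 0.0325). It was not called without LPS replicate 2 (adjusted p = 0.0732), LPS replicate 3 (0.0760), LPS replicate 4 (0.0849) or TM7nox replicate 2 (0.0686), nor in replicates 1 and 2 alone (0.199).

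Stat2 stood at 183, 202, 221 and 205 CPM with TM7nox, overlapping the LPS libraries, with a log2 difference of 0.15 (SE 0.14, adjusted p = 0.556). Jak2 stood at 65.9, 133, 93.5 and 96.3 CPM, each below the LPS library of its number. The groups overlapped, and the log2 difference of -0.50 (SE 0.20) was not called (adjusted p = 0.112), but with the replicate number as a block it was (log2 -0.51, adjusted p = 0.00615), which makes 3 genes called, where 23.0% of all genes were. Jak2 was also called without TM7nox replicate 2 (0.0277) and without the filter on low counts (0.0333).

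The other kinases were Jak1 at 141 to 181 CPM and Tyk2 at 41.1 to 53.9 CPM, both with a log2 difference of 0.00 (SE 0.11 and 0.14). Stat5b stood at 15.4 to 18.1 CPM (log2 -0.32, SE 0.14, adjusted p = 0.152), with each library below the LPS library of its number, and it was called without LPS replicate 1 (0.0434). Stat6 (87.1 to 93.6 CPM, log2 -0.15) and Jak3 (4.09 to 5.88 CPM, log2 -0.47) had no overlap with LPS, both lower, but were not called (adjusted p = 0.326 and 0.394). With Stat3, 3 of the 9 genes thus had all TM7nox libraries below all LPS libraries, as had 10.3% of all genes. In replicates 3 and 4 alone 6 of the 9 were called, Stat2 higher and Stat3, Stat5a, Stat5b, Jak2 and Jak3 lower, where 27.9% of all genes were called. In replicates 1 and 2 alone 0 of the 9 were, where 1.35% of all genes were.

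Against DMSO, cells with LPS and TM7nox still had higher RNA of the 6 genes that LPS raised, where 47.3% of all genes were called and 23.7% were called higher. This comparison shares its treated libraries with the one above and its controls with the LPS comparison. Stat2 was 7.93-fold higher (log2 2.99, SE 0.15), Jak2 5.26-fold (2.40, SE 0.21), Stat3 3.09-fold (1.63, SE 0.12), Tyk2 2.27-fold (1.18, SE 0.14), Stat5a 2.24-fold (1.16, SE 0.28) and Jak1 1.41-fold (0.50, SE 0.11). Stat5a was the exception on overlap, since replicate 1 with TM7nox (8.03 CPM) lay within the DMSO range, and in replicates 1 and 2 alone neither Stat5a (adjusted p = 0.169) nor Jak1 (0.183) was called.

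**Figure D2:**
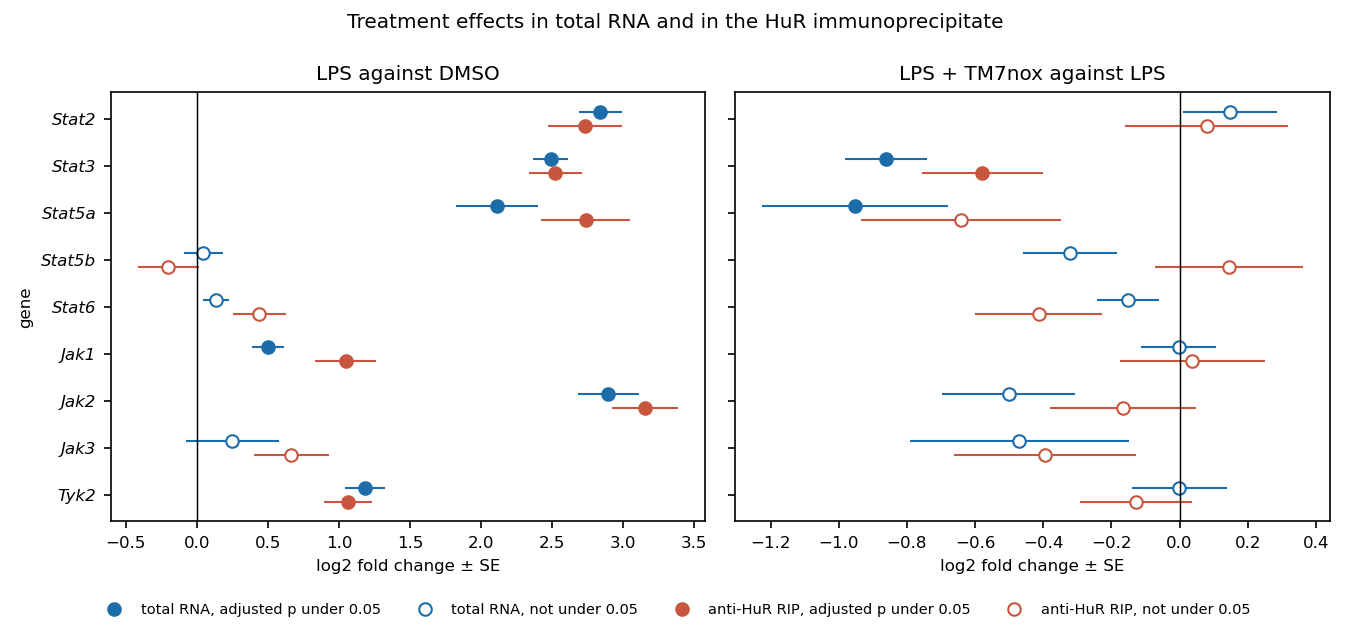
Log2 fold change with its standard error for each gene in total RNA and in the HuR immunoprecipitate, LPS against DMSO on the left and LPS + TM7nox against LPS on the right, the x axes having different ranges. Filled points passed an adjusted p under 0.05; 6 of 9 did for LPS in both assays, and with TM7nox Stat3 and Stat5a did in RNA and Stat3 in RIP.

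In the RNA recovered with the anti-HuR antibody, the same 6 genes were called higher for LPS against DMSO. In RIP, LPS raised Jak2 8.89-fold (log2 3.15, SE 0.23), Stat5a 6.66-fold (2.73, SE 0.31), Stat2 6.63-fold (2.73, SE 0.26), Stat3 5.74-fold (2.52, SE 0.19), Tyk2 2.09-fold (1.06, SE 0.17) and Jak1 2.07-fold (1.05, SE 0.21), where 44.7% of all genes were called and 23.5% were called higher. Stat5a, for example, stood at 35.6, 24.2, 33.9 and 33.7 CPM in DMSO and at 140, 242, 285 and 204 CPM in LPS, with no overlap. Stat5b stood at 81.0, 69.7, 98.4 and 112 CPM in DMSO and at 60.4, 89.7, 91.7 and 80.4 CPM in LPS, which overlapped (log2 -0.20, SE 0.21). Stat6 (log2 0.44, adjusted p = 0.0640) and Jak3 (log2 0.67, adjusted p = 0.0505) were not called, and both were with the replicate number as a block (0.0113 and 0.0352), where 57.1% of all genes were called. Stat6 was also called without DMSO replicate 1 (0.0331) or LPS replicate 2 (0.0279), and Jak3 without LPS replicate 2 (0.0268) and by DESeq2 (0.0434).

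With TM7nox, RIP values of Stat3 fell from 149, 174, 205 and 174 CPM in LPS to 79.1, 128, 136 and 113 CPM. The groups did not overlap, and the difference was 1.49-fold (log2 -0.58, SE 0.18, adjusted p = 0.0353). The 10 macrophage markers summed to 1190 to 1930 CPM in RIP with DMSO, 2290 to 3270 with LPS and 723 to 1970 when TM7nox was added, and their part in the RIP differences was not tested. Of all genes in this comparison, 16.2% were called and 7.61% were called lower. The call was lost without LPS replicate 2, 3 or 4, or TM7nox replicate 1 or 2, with adjusted p from 0.0637 to 0.0932, and without the filter on low counts (0.0745). It was also lost in each pair of replicates alone (0.183 in 1 and 2, 0.196 in 3 and 4).

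Stat5a stood at 56.8, 159, 151 and 167 CPM in RIP with TM7nox, with replicate 1 far below the others. Its log2 difference from LPS of -0.64 (SE 0.29) was not called (adjusted p = 0.150; 0.0373 without the filter on low counts), nor was that of Stat6 (-0.41, SE 0.19, 0.141). With the replicate number as a block, Stat3 (adjusted p = 0.00244), Stat5a (0.0342) and Stat6 (0.0313) were called, 3 of the 9, where 30.7% of all genes were called. Against DMSO, the 6 genes were again higher in RIP with LPS and TM7nox, by 1.91-fold for Tyk2 to 7.92-fold for Jak2, where 48.1% of all genes were called and 25.1% were called higher.

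RIP was then set against total RNA within each treatment, which places each mRNA relative to the typical gene and has no absolute scale. In DMSO, Stat5a and Stat5b were higher in RIP, Stat2, Stat6, Jak1 and Jak3 were lower, and Stat3, Jak2 and Tyk2 were not called. Of all 14311 genes, 70.4% were called in this comparison, 37.0% higher and 33.4% lower, so 6 of 9 is near the background and only the members and their sizes are described.

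The same-numbered ratios of RIP to RNA for Stat5b were 4.2, 3.87, 4.42 and 5.53 in DMSO, 3.78, 4.15, 3.54 and 3.63 in LPS and 3.81, 5.97, 4.79 and 5.31 in LPS + TM7nox. For Stat5a they were 5.55, 3.11, 3.39 and 3.76 in DMSO, 5.24, 6.28, 6.80 and 4.62 in LPS and 7.07, 8.10, 5.48 and 7.19 in LPS + TM7nox. All 24 ratios of this gene pair exceeded 3, and the RIP and RNA libraries did not overlap in any treatment, as in 32.7%, 29.0% and 30.4% of all genes in DMSO, LPS and LPS + TM7nox. The fitted log2 differences were 2.30 (SE 0.20), 1.93 (0.20) and 2.42 (0.20) for Stat5b and 2.02 (0.34), 2.54 (0.33) and 2.84 (0.34) for Stat5a, all called with adjusted p of at most 8.69e-06.

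On the other side, the ratio for Jak1 was 0.309, 0.266, 0.352 and 0.293 in DMSO, 0.379, 0.346, 0.550 and 0.462 in LPS and 0.455, 0.381, 0.579 and 0.342 in LPS + TM7nox. Every library of RIP lay below every library of RNA in each treatment for Jak1, Stat2, Stat6 and Jak3, as in 30.5%, 28.7% and 32.5% of all genes. The fitted log2 differences were -1.58, -1.17 and -1.11 for Jak1 and -1.45, -1.26 and -1.51 for Stat6, in the order DMSO, LPS, LPS + TM7nox. They were -0.92, -1.15 and -1.21 for Stat2 and -1.56, -1.29 and -1.20 for Jak3, and all 12 differences were called.

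Stat3 and Tyk2 lay close to the typical gene. The log2 differences were -0.05, -0.14 and 0.15 for Stat3 and 0.20, -0.04 and -0.15 for Tyk2, and none was called. With RLE scaling, which moved the median of all genes by 0.16, 0.18 and 0.22 in the 3 treatments, Tyk2 in DMSO (log2 0.34) and Stat3 in LPS + TM7nox (0.38) were called higher, as they were by DESeq2. Without RIP replicate 1 of LPS + TM7nox, Stat3 there was called as well (log2 0.36, adjusted p = 0.0224). Jak2 lay above 0 in all 12 same-numbered pairs, with ratios of 1.15, 1.12, 1.21 and 1.26 in DMSO, 1.30, 1.32, 1.57 and 1.38 in LPS and 1.62, 1.71, 1.89 and 1.57 in LPS + TM7nox. It was called in LPS + TM7nox (log2 0.84, SE 0.23, adjusted p = 0.00202), but not in replicates 1 and 2 alone (0.158). In DMSO (log2 0.36, adjusted p = 0.173) and in LPS (0.49, adjusted p = 0.0592) it was called only under some alternatives, among them the replicate block (0.0138 and 0.0014) and, in LPS, leaving out RIP replicate 1 (0.0159), RIP replicate 4 (0.0385) or RNA replicate 2 (0.0174). In LPS 63.7% of all genes were called, 32.9% higher and 30.8% lower, and in LPS + TM7nox 69.9%, 35.2% higher and 34.8% lower.

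**Figure D3:**
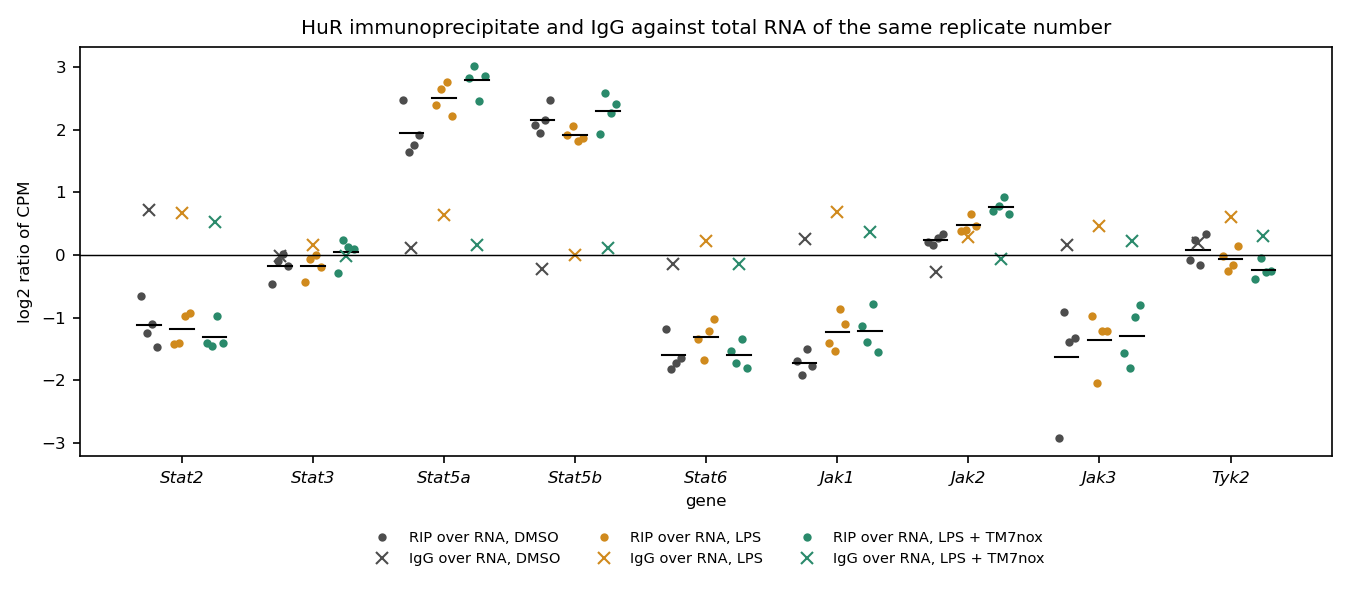
Log2 ratio of CPM in the HuR immunoprecipitate to total RNA of the same replicate number (points, with black bars for the mean of 4) and of IgG to total RNA in replicate 3 (crosses), by gene and treatment. Stat5a and Stat5b lie between 1.64 and 3.02 in RIP, Stat2, Stat6, Jak1 and Jak3 lie below 0, and the IgG crosses of all 9 genes lie between -0.28 and 0.72.

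Whether the ratio of RIP to RNA itself changed with treatment was tested as an interaction. None of the 9 genes was called for LPS against DMSO, where 6 of 14311 genes (0.0419%) were, and none for LPS + TM7nox against LPS, where 1 gene (0.00699%) was. None of the 9 had an unadjusted p under 0.05 in either, and none was called by DESeq2 or with the replicate block. The largest LPS differences were 0.51 (SE 0.45) for Stat5a and 0.41 (SE 0.25) for Jak1, and the largest with TM7nox were 0.49 (SE 0.27) for Stat5b and 0.35 (SE 0.32) for Jak2. The standard errors of these tests were 0.21 to 0.45. The fit took RIP and RNA libraries as separate samples, and the block removed only a shift shared by a replicate number. The tests thus did not use the pairing of RIP with RNA of the same number, and smaller changes may have gone uncalled.

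The same-numbered ratios were also set beside each other, as a description without a test that was chosen after the values had been seen. From DMSO to LPS the log2 ratio was higher in 4 of 4 pairs for Jak1 and Jak2, and from LPS to LPS + TM7nox it was higher in 4 of 4 for Stat3, Stat5b and Jak2 and lower in 4 of 4 for Stat6. Of all genes, 24.4% and 27.3% had all 4 pairs one way in these comparisons. For Jak2 the mean log2 ratio was 0.245 ± 0.0789 (SD, n = 4) in DMSO, 0.472 ± 0.124 in LPS and 0.760 ± 0.118 in LPS + TM7nox, with no overlap between successive treatments. Of all genes, 7.91% and 5.84% had no overlap in these comparisons, which share the LPS libraries.

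In replicate 3, the IgG libraries lay within -0.28 to 0.72 on the log2 scale of total RNA for the 9 genes. For Stat5a, IgG had 10.8, 65.4 and 30.8 CPM in DMSO, LPS and LPS + TM7nox, and for Stat5b 18.9, 25.8 and 18.5 CPM. For Stat2, IgG had 32.2, 276 and 317 CPM. In all 3 treatments IgG lay above every RNA library for Stat2, Stat5a, Jak1 and Tyk2, and for Jak2 in none. With 1 IgG library per treatment, the 12 RIP and 3 IgG libraries were compared with treatment as a covariate.

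Against IgG, Stat5b was 4.04-fold higher in RIP (log2 2.02, SE 0.23) and Stat5a 3.47-fold (1.79, SE 0.29). Jak1 (log2 -1.89, SE 0.17), Stat2 (-1.72, SE 0.19), Jak3 (-1.61, SE 0.20), Stat6 (-1.47, SE 0.14) and Tyk2 (-0.66, SE 0.14) were lower, and all 7 had an adjusted p of at most 0.000501. Of all genes, 68.1% were called, 33.8% higher and 34.2% lower. RLE scaling moved the median of all genes by 0.13 here. Stat3 (log2 -0.22, adjusted p = 0.207) was not called, and Jak2 (0.47, SE 0.20) lay at the threshold with an adjusted p of 0.0501, being called in 13 of 20 alternatives (0.000724 to 0.385), among them the replicate block (0.0159). The calls of Stat5a, Stat5b, Stat2, Stat6, Jak1, Jak3 and Tyk2 stood in all 20, the replicate 3 libraries alone among them.

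Since Stat5a rose with LPS and Stat5b did not, the ratio of Stat5a to Stat5b per kb of exon was taken in every library. This ratio was chosen after the values had been seen and is given without a test, and reads of the shared windows could be split between the genes. In RNA it was 0.279, 0.362, 0.377 and 0.371 in DMSO, 1.41, 1.5, 1.36 and 1.67 in LPS and 0.438, 0.908, 1.34 and 1.10 in LPS + TM7nox. In RIP it was 0.369, 0.290, 0.289 and 0.252 in DMSO, 1.95, 2.26, 2.60 and 2.13 in LPS and 0.812, 1.23, 1.53 and 1.49 in LPS + TM7nox. In IgG it was 0.478, 2.13 and 1.39. Stat5b had more counts per kb than Stat5a in all 9 DMSO libraries, and Stat5a had more in all 9 LPS libraries. Only the total RNA libraries among them measure transcript level, while RIP and IgG measure recovery. The replicate numbers repeat across assays, so the 9 are not separate samples. With TM7nox every ratio lay below those of LPS in its assay.

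**Figure D4:**
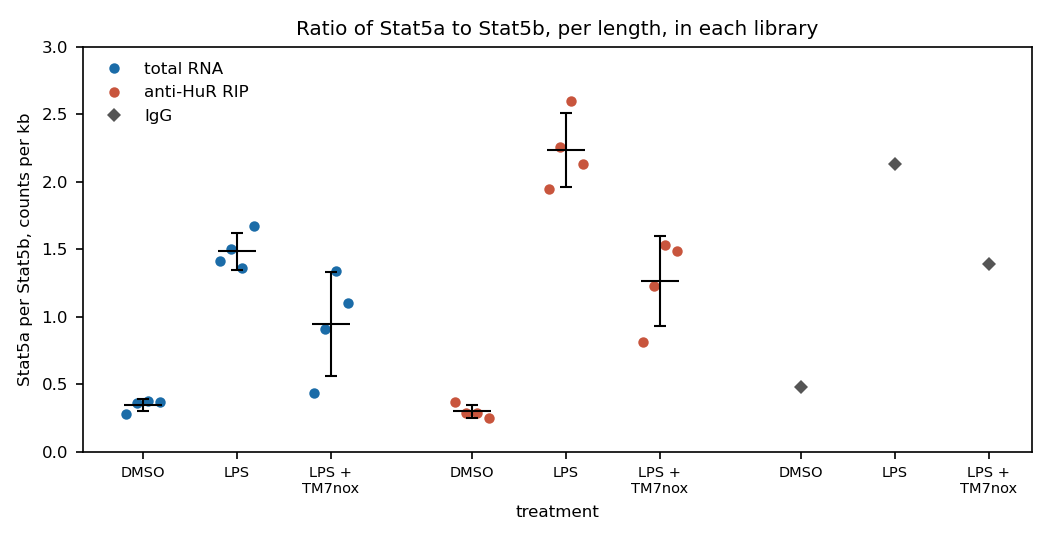
Ratio of Stat5a to Stat5b, both as counts per kb of exon, in each library by assay and treatment, with black bars for the mean ± SD of 4. In RNA the ratio was 0.347 ± 0.0459 with DMSO, 1.49 ± 0.136 with LPS and 0.947 ± 0.382 with TM7nox added, and in RIP it went from 0.300 ± 0.0493 to 2.24 ± 0.275 and 1.27 ± 0.330.

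The ligands, receptors, inhibitors and targets around these genes were read from lists of known pathway members in total RNA. Beside the counts that follow, 20.2% of all genes were called higher and 21.7% lower with LPS, and 7.37% higher and 6.4% lower with TM7nox. Of 15 cytokine genes listed, 12 passed the filter on low counts and rose with LPS. Some passed only through their LPS libraries, so that this count was partly set by the filter. Csf3 (granulocyte colony-stimulating factor) went from 0.470 ± 0.406 to 451 ± 40.1 CPM (SD, n = 4) and Il27 from 0.398 ± 0.332 to 333 ± 71.7 CPM. Csf2 (granulocyte-macrophage colony-stimulating factor) had no count in DMSO and 9.49 ± 5.99 CPM in LPS, at least 332-fold higher against a floor of 3 counts over the DMSO group. With TM7nox 2 of the 12 fell: Il10 from 29.2 ± 8.05 to 8.26 ± 3.70 CPM (log2 -1.82, adjusted p = 0.00152) and Il27 to 145 ± 65.4 CPM (log2 -1.21, adjusted p = 0.0250). The Il27 call was lost without LPS replicate 2, 3 or 4 or TM7nox replicate 2, with adjusted p from 0.0517 to 0.0635.

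Of 26 receptor chains listed, 18 passed the filter, of which 6 rose and 3 fell with LPS (median log2 0.45). Il4ra, the receptor chain upstream of Stat6, rose from 0.566 ± 0.525 to 24.2 ± 3.70 CPM, Il15ra from 1.93 ± 0.268 to 13.2 ± 2.56 and Il10ra from 8.79 ± 1.39 to 47.8 ± 5.43. The signalling chain of the interleukin-6 receptor, Il6st, fell (log2 -0.76), as did Il6ra (-1.31) and Ifngr1 (-0.86). With TM7nox 5 fell and 2 rose (median log2 -0.14). Il4ra fell to 4.93 ± 2.82 CPM (log2 -2.30, adjusted p = 0.00640), and Csf2rb, the beta chain through which Jak2 and STAT5 are engaged, from 64.4 ± 15.2 to 32.8 ± 6.21 CPM (log2 -0.97, adjusted p = 0.00258). Il7r rose from 9.31 ± 4.62 to 39.2 ± 21.0 CPM (log2 2.07, adjusted p = 0.00576) and Il6st by a log2 of 0.82.

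Of 20 inhibitors listed, 19 passed the filter, of which 9 rose and 1 fell with LPS (median log2 0.30). Cish, among those that rose, had no count in DMSO RNA, so its rise was set by the filter. Socs3, the inhibitor of interleukin-6 signalling to Stat3, rose from 2.5 ± 1.2 to 822 ± 37.5 CPM (log2 8.49, SE 0.29), and Usp18, which restrains the type I interferon receptor, from 44.6 ± 12.1 to 423 ± 44.7 CPM. Ptprc (CD45), a phosphatase, rose from 125 ± 5.87 to 234 ± 16.7 CPM. With TM7nox 3 fell, Socs3 to 249 ± 33.6 CPM (log2 -1.72, adjusted p = 0.000118), Ptpn6 (the phosphatase SHP-1) from 152 ± 16.1 to 85.2 ± 11.8 CPM and Socs1 (log2 -1.28, adjusted p = 0.0437), and none rose (median log2 -0.27). Of 13 cofactors, 6 rose and 2 fell with LPS (median log2 -0.02), among them Nmi from 24 ± 2.64 to 117 ± 6.53 CPM and Irf9, the partner of Stat2, from 37.2 ± 7.33 to 68.8 ± 3.61 CPM, while Sh2b2 fell by 0.85 on the log2 scale. With TM7nox 2 of the 13 rose (median log2 0.11), Lmo4 (log2 1.41) and Stam2 (0.72).

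The target lists were counted in the same way. Of 18 interferon targets, 18 rose with LPS (median log2 3.64), such as Rsad2 from 27 ± 12.2 to 2880 ± 383 CPM and Mx1 from 1.91 ± 1.17 to 123 ± 16.0 CPM. With TM7nox 1 of the 18 fell and none rose (median log2 0.06). This gene was Ifit2, from 2010 ± 301 to 958 ± 166 CPM (log2 -1.07, adjusted p = 0.0461), and its call was lost when any 1 of the 8 libraries was left out (adjusted p 0.0551 to 0.109).

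Of 12 Stat3 targets, 11 rose with LPS (median log2 2.54), and 5 fell with TM7nox (median log2 -0.60). Cebpd fell from 302 ± 15.7 to 96.4 ± 15.8 CPM (log2 -1.64), Bcl3 from 99.8 ± 10.1 to 34.7 ± 7.63 CPM (log2 -1.52) and Fos from 31.6 ± 10.6 to 13.1 ± 5.12 CPM (log2 -1.27). Fos was the 1 gene of the list not called for LPS (log2 -0.26, adjusted p = 0.572). The Fos call for TM7nox was lost without LPS replicate 1 or TM7nox replicate 3 or 4 (adjusted p 0.0709 to 0.0724). Sbno2 and Etv3 also fell, while Il1rn (log2 -0.37, adjusted p = 0.542), Pim1 (0.32) and Zfp36 (-0.75, adjusted p = 0.0715) were not called. Many of these genes are also targets of NF-kB or other factors, so the list's name is not a reading of Stat3 activity.

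Of 7 STAT5 targets, 5 rose with LPS (median log2 2.10) and 5 fell with TM7nox (median log2 -1.18), which were not the same 5. Bcl2l1, Bcl6 and Id1 did both, Myc and Ccnd2 were called for LPS and not for TM7nox, and Ccnd1 (log2 -0.01, adjusted p = 0.961) and Ccnd3 (log2 0.42, adjusted p = 0.0690) were not called for LPS. Ccnd1 (cyclin D1) fell from 196 ± 36.9 to 48.0 ± 2.58 CPM (log2 -2.03), Ccnd3 from 53.6 ± 1.80 to 15.9 ± 3.54 CPM (log2 -1.75) and Id1 from 17.3 ± 6.92 to 3.98 ± 1.65 CPM (log2 -2.12). Bcl2l1, which encodes the survival protein BCL-XL, rose with LPS from 40.3 ± 9.31 to 239 ± 21.8 CPM and fell by 0.61 on the log2 scale with TM7nox. Myc rose with LPS from 6.93 ± 8.89 to 65.3 ± 54.7 CPM, a wide spread. Of 6 Stat6 targets that passed the filter, out of 12 listed, 2 rose and 1 fell with LPS. The 2 that rose, Ccl22 and Ccl17, were at 0.0978 ± 0.102 CPM and at no count in DMSO, so their rise was set by the filter as well. With TM7nox 2 fell, Ccl22 from 108 ± 41.9 to 25.8 ± 15.3 CPM (log2 -2.06, adjusted p = 0.00353) and Ccl17 (log2 -2.47, adjusted p = 0.0265), both chemokines.

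For each gene, the genes with the most similar pattern over the 6 RNA and RIP group means were sought among 8322 genes, as the root mean square difference of centred log2 CPM. Exoc3 was nearest to Stat6 (0.0258), Agrn to Jak1 (0.0580), Cd200r1 to Tyk2 (0.0613), Ccdc50 to Stat5b (0.0797) and Fam98b to Jak3 (0.0865). The genes that moved more had more distant neighbours: Cd300lf and Ripk2 for Stat3 (0.138 and 0.167), Gk and Tet2 for Stat5a (0.149 and 0.224), Herc6 and Nfkbib for Stat2 (0.158 and 0.163) and Nlrc5 and Usb1 for Jak2 (0.247 and 0.269). Second in the order were Exoc7 for Stat6 (0.0336), Rps6 for Jak1 (0.0632), Bri3 for Tyk2 (0.0880), Gid8 for Stat5b (0.0948) and Bud23 for Jak3 (0.0892). The points share libraries and scaling, so this likeness is a description.

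Promoters from RefSeq (GRCm38.p6, 300 bases around the start of transcription) were matched for all 9 genes and searched on both strands. The core of the interferon-stimulated response element (ISRE core) was found in the promoter of Stat2 alone of the 9, on the strand opposite to the gene, and 3.44% of 32851 promoters hold it. It is shown in capitals as read on the strand of the gene. It was picked for display after the values had been seen, and its part in the rise of Stat2 was not tested.
Stat2: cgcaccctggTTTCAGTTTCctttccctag
An exact match places it at chr10:128106135-128106164 on GRCm39, plus strand. A kappa B match was found in the second promoter of Stat5a (8.46% of promoters hold one), and the STAT site TTCNNNGAA (8.3%) was in none of the 9. Stat3, Jak1, Jak2 and Tyk2, which LPS raised as well, held no match to any of these motifs. Such matches of letters in a short window, and their lack, show neither binding nor its absence.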

How the data were processed

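The authors deposited 1 table of raw counts, whole numbers of reads per Ensembl gene in 27 libraries, with no normalization. FastQC 0.11.9, STAR, HTSeq and DESeq2 and the build GRCm39 are named in the submitters' processing notes. None of their roles or settings, the annotation release or the use of strand was given in the sources used here. Libraries were made with a stranded kit and no stated molecular identifiers, per the labels' protocols, so copies of 1 molecule count separately.

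Differences were assessed on these counts with the quasi-likelihood F test of edgeR 4.0.16 (R 4.3.3, two-sided), TMM scaling, filterByExpr at a minimum count of 10 and Benjamini-Hochberg adjustment over all genes tested. One model held the 12 RNA libraries and another the 12 RIP libraries. RIP against RNA and its change between treatments came from 1 fit of 24 libraries, and RIP against IgG from 15 with treatment as a covariate. Standard errors are the fold change over the square root of F. The scripts were tested on simulated data. Levels per kb use the joined length of all exons annotated for a gene in GENCODE M39 (GRCm39), which 93.2% of the gene identifiers matched.

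The members, pathway lists and tests were chosen with earlier results of these data known. All 9 genes are named in each comparison. Of each pathway list, up to 3 called genes with the largest log2 fold change are named, if their mean RNA level reached 5 CPM and the groups did not overlap, and for each member the 2 genes of most similar pattern. Some others (Socs1, Il6st, Il6ra, Ifngr1, Sbno2, Etv3, Il1rn, Pim1, Ccl17, Bcl6, Ccnd2) are named after their values were seen.

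Same-numbered replicates deviated together from their group means. Correlations were 0.326 to 0.687 in RNA and 0.317 to 0.753 in RIP over the 12 same-numbered pairs of each. Over the 36 pairs of different number they were -0.569 to 0.591 and -0.618 to 0.306. Every same-numbered pair was over 0.1, so the labels' numbers were taken to pair samples in the replicate block and the same-numbered ratios. The main tests did not use this pairing. Alternatives were RLE scaling, no filter, DESeq2 1.42.0, the replicate block, replicates 1 and 2 or 3 and 4 only, and each library left out. No pair of replicates agreed within sampling noise (chi-square per gene 38 to 213 over 36 pairs). Member counts ranged from 25 (Jak3) to 8782 (Jak1) per library, and a count of 0 over a group was given a floor of 3 counts. Floors cover counting error only.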

Additional observations from a re-analysis of the deposited data

Results flagged for a closer look

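In 2 of 54 groups of 4 libraries, 1 library lay far from the other 3, by a gap over 0.829 of the whole range; chance flags about 1 in 20 groups. Both were Stat5a in RIP. In DMSO, replicate 2 stood at 24.2 CPM and the others at 33.7 to 35.6 CPM. In LPS + TM7nox, replicate 1 stood at 56.8 CPM and the others at 151 to 167 CPM. For LPS + TM7nox, the total RNA library of replicate 1 was likewise the lowest of its group for Stat5a, at 8.03 CPM beside 19.6 to 27.5 CPM.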

How the results depend on the processing

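Of 1710 values of the 9 genes under the alternatives, 1644 kept their side of the threshold, 18 lost a call, 48 gained one and 0 called values turned. Within these counts 76 had the other sign, none of them called, with a size of at most 0.26 on the log2 scale. For TM7nox against LPS in RNA, 0 genes were called in replicates 1 and 2, 6 in replicates 3 and 4, and 1 to 3 with 1 library left out. In RIP the counts were 0, 0 and 0 to 1, and 3 with the replicate block. The replicate block changed no call beside those given in the report. Over all genes, TM7nox against LPS in RNA gave 1704 calls, and 3050 with the block, 168 in replicates 1 and 2 and 3489 in replicates 3 and 4. In RIP it gave 2212, and 4565, 789 and 1070. LPS against DMSO gave 5190 in RNA and 1668 in replicates 1 and 2, and 6090 and 3392 in RIP. The interaction for LPS gave 6, and 49 without the filter, 67 by DESeq2 and 39 with the block. The causes were not tested. Without the filter the median log2 of all genes moved by 0.37 in RIP against RNA in DMSO. Of 546 values of pathway genes, 515 were unchanged in call and 31 lost it, most in replicates 1 and 2. Counts of Stat5a, Jak2 and Jak3 in the shallow DMSO replicate limit their precision. The block for RIP against IgG was added after seeing the data.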

Other observations

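The pathway lists were also read in the HuR immunoprecipitate against total RNA. Of 18 interferon targets, 12 were lower in RIP than in RNA in DMSO and 1 was higher (median log2 -0.79), with 13 and 1 in LPS and 14 and 1 in LPS + TM7nox. Over all genes the shares called lower were 33.4%, 30.8% and 34.8%, and those called higher 37.0%, 32.9% and 35.2%. Of 7 STAT5 targets, 4 were higher in RIP in each treatment and 1, 0 and 1 were lower (median log2 1.81, 1.85 and 2.00). The other lists in DMSO held 10 receptors higher and 6 lower of 19, 7 and 5 of 20 inhibitors, 6 and 5 of 12 Stat3 targets, 4 and 5 of 13 cofactors, 2 and 1 of 13 cytokines and 2 and 1 of 6 Stat6 targets. No test compared the lists with other genes.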
